A study of Mus musculus with 4 samples.

Results

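The vascular endothelial growth factor (VEGF) family was followed in mouse embryoid bodies kept in normal or low oxygen. The set held 10 genes, taken by symbol from the 32285 genes of the deposited tables and found there in all 4 libraries: the 5 ligand genes Vegfa, Vegfb, Vegfc, Vegfd and Pgf, the 3 receptor kinase genes Flt1, Kdr and Flt4, and the 2 neuropilin genes Nrp1 and Nrp2. The symbols were chosen for what the genes encode, but with earlier results of these data known.

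The embryoid bodies were grown from R1, an established mouse embryonic stem cell line, and each group was 1 library of dissociated cells. The groups were 8 days in normoxia, 8 days with the last 16 h in hypoxia, 10 days in normoxia, and 10 days with the last 48 h in hypoxia. No transgene or drug is named in the labels, and no oxygen level is given in the sources used here. Between 2670 and 4615 cells were kept per library, 13792 in all, with 62221875 to 84709052 UMIs (unique molecular identifiers, each standing for 1 captured RNA molecule) per library. The median cell held 23034 UMIs in normoxia and 18838.5 in hypoxia at day 8, and 20306 and 12800 at day 10. The labels give the cell type as mouse embryonic stem cells, but the 6 pluripotency markers summed to between 3.23 and 19.1 CPM (UMIs scaled to 1000000 per library), and none of them averaged 5 CPM. A finer clustering still set apart 40 cells led by such markers. Of the kept barcodes 13 occurred in 2 libraries. With 1 library per group there was no replicate check of any difference and no test between groups. The condition cannot be told apart from the library. All intervals are exact 95% intervals that cover counting error only.

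VEGF ligands are secreted dimers that direct the growth of blood and lymphatic vessels. VEGF-A binds the receptor kinases VEGFR1 (Flt1) and VEGFR2 (Kdr), and VEGFR2 carries most of its signal in endothelial cells, while VEGFR1, also made as a soluble form, binds the ligand tightly and limits what reaches VEGFR2. Among the receptor kinases, PlGF (Pgf) and VEGF-B bind VEGFR1 only, and VEGF-C and VEGF-D bind VEGFR3 (Flt4). The neuropilins are co-receptors shared with the class 3 semaphorins. In low oxygen the hypoxia-inducible factors (HIF) raise Vegfa transcription, and in the embryo Kdr marks mesoderm from which blood and endothelium arise. The 3′ counts used here pool all transcripts of a gene, so the soluble and membrane forms of Flt1 were not told apart.

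Promoter windows of Vegfa, Flt1 and Kdr are shown because these genes had the largest differences among the ligands and receptor kinases between hypoxic and normoxic libraries. Each is the 250 bases before the RefSeq start of the gene in mouse build GRCm38.p6, written 5′ to 3′ on the gene's own strand, which is the minus strand for all 3 genes. Capitals mark GCGTG on either strand, which reads CACGC when it lies on the opposite one. The windows span chr17:46032378-46032627 for Vegfa, chr5:147726012-147726261 for Flt1 and chr5:75978456-75978705 for Kdr.
Vegfa: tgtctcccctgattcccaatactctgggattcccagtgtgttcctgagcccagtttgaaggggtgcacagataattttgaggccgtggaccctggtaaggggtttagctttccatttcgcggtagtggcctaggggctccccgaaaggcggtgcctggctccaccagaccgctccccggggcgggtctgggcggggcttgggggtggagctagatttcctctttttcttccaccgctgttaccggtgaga
Flt1: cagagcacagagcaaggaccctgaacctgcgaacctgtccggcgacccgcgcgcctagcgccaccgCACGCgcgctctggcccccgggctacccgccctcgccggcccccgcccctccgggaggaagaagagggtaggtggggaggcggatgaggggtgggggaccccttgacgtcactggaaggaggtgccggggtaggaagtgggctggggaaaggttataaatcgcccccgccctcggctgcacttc
Kdr: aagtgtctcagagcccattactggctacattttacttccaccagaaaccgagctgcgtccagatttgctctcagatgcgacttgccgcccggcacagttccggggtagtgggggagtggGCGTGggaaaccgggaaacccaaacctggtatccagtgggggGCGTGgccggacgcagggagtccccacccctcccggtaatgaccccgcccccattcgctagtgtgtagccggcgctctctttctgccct

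These windows may miss other starts: Vegfa and Pgf have 2 windows each in the RefSeq table, and the one nearest the annotated gene start was used. The letters searched were ACGTG and GCGTG on both strands, the core of the element that HIF binds. All 10 genes matched a RefSeq window, and 6 of the 10 windows held at least 1 match: 2 each in Vegfb, Kdr and Nrp2, and 1 each in Pgf, Flt1 and Nrp1. All of them were GCGTG. For comparison, 38.6% of the 32851 RefSeq windows of this length held either motif, and their median GC content was 52.4% against 59.2% in the Vegfa window, 70.4% in Flt1 and 61.6% in Kdr. No match in the Vegfa window says only that these letters are not in these 250 bases.

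Vegfa, the main vessel growth factor, was higher in both hypoxic libraries than in the normoxic library of the same age. The gene (ENSMUSG00000023951) lies on chromosome 17 from 46016993 to 46032369 on the minus strand. Its level was 21.1 CPM in normoxia (interval 20.2 to 22.1) and 77.3 CPM in hypoxia (75.3 to 79.3) at day 8, and 37.3 CPM (35.8 to 38.9) and 147 CPM at day 10, where its lower bound was 145 CPM. The 4 intervals did not overlap, and both hypoxic libraries lay above both normoxic ones. The log2 ratio of CPM + 1, used for all ratios here, was 1.82 at day 8 and 1.95 at day 10. Between the normoxic libraries it was 0.79, higher at day 10.

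Pgf, which encodes placental growth factor, was also higher in both hypoxic libraries. The gene (ENSMUSG00000004791, chromosome 12, 85166635 to 85177790, minus strand) stood at 12.6 CPM in normoxia and 21.3 CPM in hypoxia at day 8, and at 16.4 and 31.0 CPM at day 10. The log2 ratios were 0.71 and 0.88. Both hypoxic libraries were again above both normoxic ones.

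Vegfc, the main ligand of lymphatic vessels, was at 25.9 and 26.2 CPM in normoxia and hypoxia at day 8, a log2 ratio of 0.01 whose counting interval spans no difference. At day 10 it was at 21.7 CPM in normoxia and 33.5 CPM in hypoxia, a log2 ratio of 0.60, just past the fold used for calls. Vegfb, a ligand linked to heart muscle and fat handling, was at 75.6, 77.0, 72.6 and 59.3 CPM in the same order of libraries. Its log2 ratio at day 10 was -0.29 scaled to all UMIs and 0.21 under TMM scaling (trimmed mean of M values), so its direction there depends on the scaling. Vegfd, a ligand of lymphatic vessels, was under the minimum for calls, at 1.58 and 1.08 CPM at day 8 and 3.21 and 1.80 CPM at day 10, or 84 to 200 UMIs per library. Its plain ratio was 0.681 (0.512 to 0.901) at day 8 and 0.559 (0.447 to 0.698) at day 10.

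**Figure D1:**
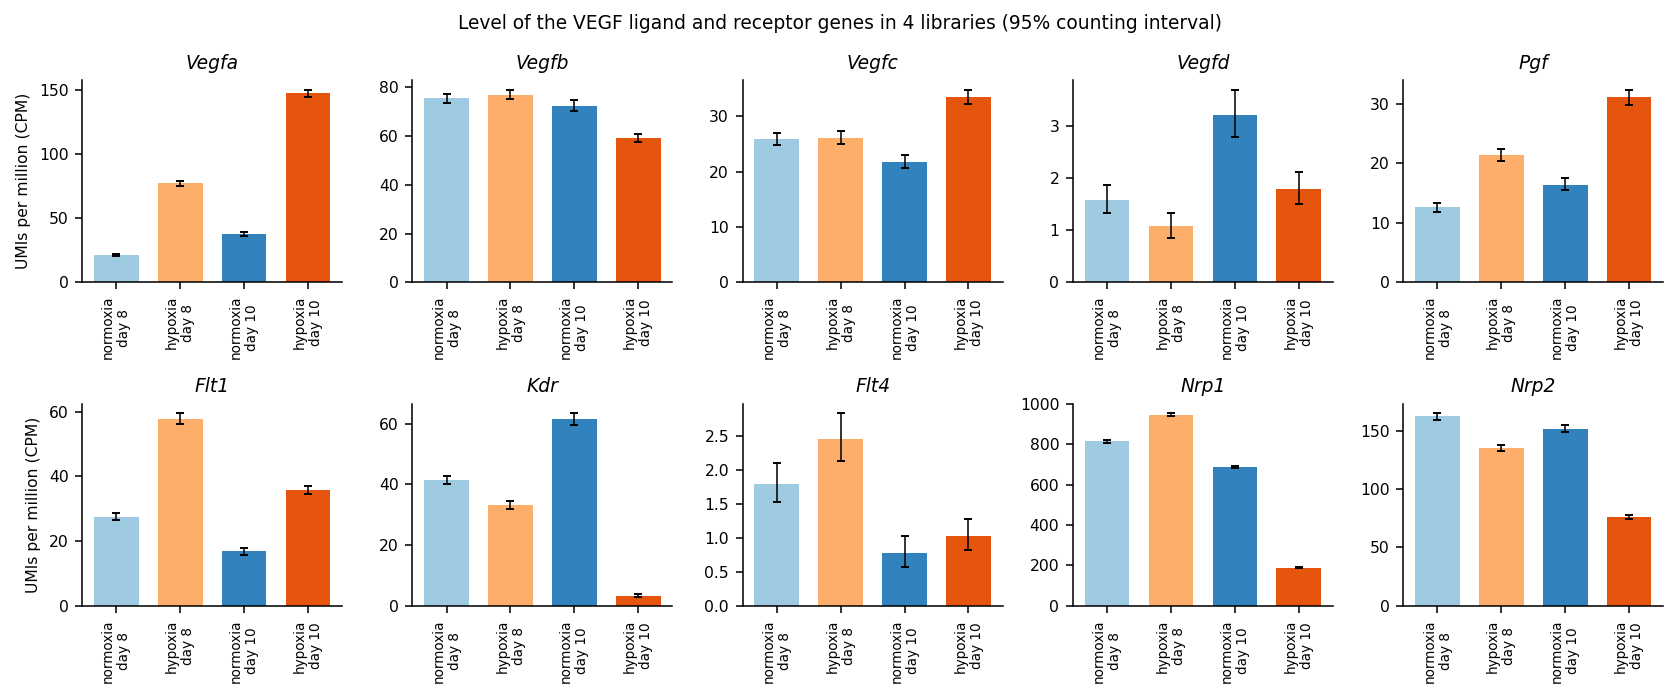
Level of each gene in CPM (bars, each panel with its own scale from 0) in the 4 libraries, with exact 95% Poisson intervals for counting error. Vegfa, Pgf and Flt1 stand higher in the hypoxic library at both ages, and Kdr is at 61.4 CPM in normoxia and 3.29 CPM in hypoxia at day 10.

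Flt1, the high-affinity receptor for VEGF-A and PlGF, was higher in hypoxia at both ages. The gene (ENSMUSG00000029648) lies on chromosome 5 from 147561604 to 147726011 on the minus strand. It was at 27.6 CPM in normoxia (26.5 to 28.7) and 57.8 CPM in hypoxia (56.2 to 59.5) at day 8, and at 16.8 CPM (15.8 to 17.8) and 35.8 CPM (34.4 to 37.1) at day 10. The log2 ratios were 1.04 and 1.05. The normoxic level was lower at day 10 than at day 8, with a log2 ratio of -0.69. The hypoxic library of day 10, at 35.8 CPM, lay above the normoxic library of day 8, at 27.6 CPM.

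Kdr, the main signalling receptor, was far lower in hypoxia at day 10 and only slightly lower at day 8. The gene (ENSMUSG00000062960, chromosome 5, 75932827 to 75978458, minus strand) was at 41.5 CPM in normoxia and 33.1 CPM in hypoxia at day 8, a log2 ratio of -0.32. Of the genes tested, 28.7% lay lower at day 8, and under TMM the Kdr ratio was -0.10. At day 10 Kdr was at 61.4 CPM in normoxia (59.5 to 63.4, 3822 UMIs) and 3.29 CPM in hypoxia (2.90 to 3.73, 253 UMIs). The log2 ratio was -3.86, and only 0.311% of the genes tested lay lower in that comparison. The day 10 hypoxic library was the lowest of the 4 and the day 10 normoxic library the highest. Flt4, the receptor for VEGF-C and VEGF-D, was at 1.79, 2.46, 0.771 and 1.03 CPM in the same order, from 48 to 192 UMIs, and at day 10 the interval of its ratio spanned 1.

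Nrp1, a co-receptor for VEGF-A and for semaphorins, was read from 14466 to 73909 UMIs per library. The gene (ENSMUSG00000025810) lies on chromosome 8 from 128358604 to 128503363 on the plus strand and overlaps the microRNA gene Mir1903. It was at 815 CPM in normoxia and 947 CPM in hypoxia at day 8, a log2 ratio of 0.22, and at 688 and 188 CPM at day 10, a log2 ratio of -1.86. The day 10 hypoxic library stood far below the other 3. Nrp2, a co-receptor linked to VEGF-C and lymphatic vessels, was at 162 and 135 CPM at day 8 and at 152 and 76.0 CPM at day 10, with log2 ratios of -0.27 and -0.99. The Nrp2 gene overlaps 2 other annotated genes, Gm29083 and Gm37121, whose reads may be split from it or shared with it.

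A gene was called where its mean over the 4 libraries was at least 5 CPM and its ratio at least 1.5-fold. Of the 10 genes, 8 passed this minimum, and Vegfd and Flt4 did not. At day 8, 3 of the 8 (Vegfa, Pgf and Flt1) were called higher in hypoxia, where 4.59% of the 10599 genes tested were, and 0 were called lower, where 10.0% of all genes were. At day 10, 4 of the 8 (Vegfa, Vegfc, Pgf and Flt1) were called higher, where 10.4% of all genes were. The other calls at day 10 were 3 of the 8 lower (Kdr, Nrp1 and Nrp2), close to the 44.1% of all genes called lower. Of all genes tested, 27.2% had a lower ratio than Nrp2, 6.83% a lower one than Nrp1 and 0.311% a lower one than Kdr. Between the normoxic libraries, 1 of the 8 was called higher at day 10 (Vegfa, background 7.94%) and 1 lower (Flt1, background 8.22%). Each normoxic library serves in 2 of these comparisons, which are therefore not independent.

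Markers of other cells differed between the day 10 libraries too. From normoxia to hypoxia the summed level of 12 fibroblast markers went from 9018 to 3770 CPM, that of 8 contractile markers from 1886 to 7677 CPM, and that of 8 cell cycle genes from 856 to 248 CPM. Median mitochondrial UMIs were 3.92% and 0.562% there, and 3.95% and 1.85% at day 8. Their part in the values of the 10 genes was not tested.

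Scaling mattered for the genes in the middle. TMM moved the median log2 ratio of all genes from -0.11 to 0.10 at day 8 and from -0.46 to 0.01 at day 10. Under TMM the genes called higher went from 486 to 994 at day 8 and from 1100 to 2699 at day 10, and those called lower from 1063 to 434 and from 4678 to 2684. Vegfa, Pgf and Flt1 stayed called higher at both ages and Vegfc at day 10, and Kdr (-3.44) and Nrp1 (-1.36) stayed called lower at day 10. Nrp2 at -0.49 did not. Between the normoxic libraries TMM took the genes called higher from 842 to 1129 and those called lower from 871 to 562, with Vegfa and Kdr (0.68) called higher and Flt1 (-0.56) not called.

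**Figure D2:**
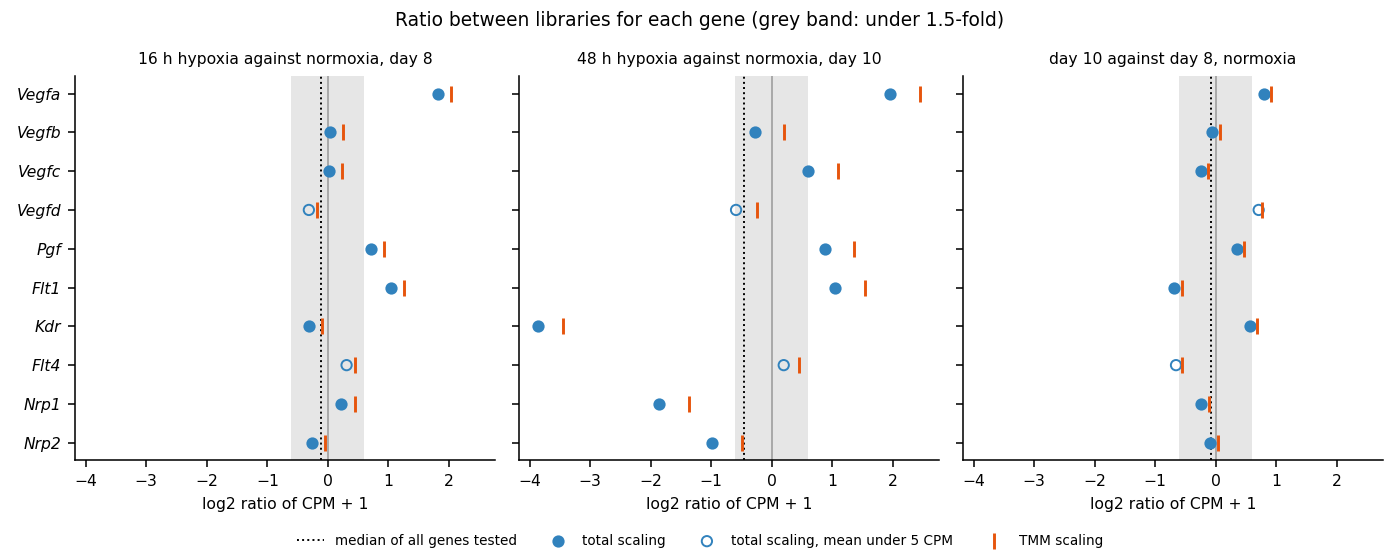
Log2 ratio of CPM + 1 for each gene in 3 comparisons of libraries: filled circles, scaled to all UMIs; open circles, genes with a mean under 5 CPM; orange ticks, TMM scaling; dotted line, median of all genes tested; grey band, under 1.5-fold. Vegfa lies at 1.82 and 1.95 in the hypoxia comparisons and Kdr at -0.32 and -3.86.

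The cells that held these RNAs were not the same for each gene. Cells were clustered without the 10 genes and without hypoxia, glycolysis and cell cycle genes. Of the clusters, 6 were named as separate classes from marker genes. These were endothelial-like (led by Cdh5, Cldn5 and Emcn), endoderm-like (Ttr, Spink1 and Afp) and macrophage-like (Tyrobp, C1qb and Mrc1) cells. The rest were erythroid-like (embryonic globins), megakaryocyte-like (Pf4, Gp9 and Treml1) and cardiomyocyte-like (Ttn, Myh6 and Myl7) cells. The other 15 clusters each scored highest for a mesenchymal marker list (fibroblast, contractile or mesothelial) and are called the cells outside the named classes. They held 2683, 2891, 2388 and 4314 cells in the day 8 normoxic, day 8 hypoxic, day 10 normoxic and day 10 hypoxic libraries. They took 85.7% to 95.6% of all UMIs. In summed counts, fewer cells of a type and less RNA per cell cannot be told apart, so levels within a class are given beside the totals.

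Endothelial-like cells were few, with 19 and 18 in the day 8 normoxic and hypoxic libraries. The day 10 normoxic library had 2 and the day 10 hypoxic one 22. Over the class as a whole, all 15 endothelial markers were at least 2-fold above other cells. The class was named from these same markers. UMIs of at least 3 of them were found in all 19 and 18 cells of day 8. In day 10 hypoxia they were found in 14 of the 22 cells. Of the cells outside the named classes, 1342 of 2683, 924 of 2891 and 307 of 4314 had them in the same libraries. These counts are therefore no separate check of the name. A coarser clustering put 10, 18, 1 and 8 cells in this class in the same order of libraries. A finer one put 19, 18, 2 and 22 there. The minimum of cells for a class was lowered from 20 to 15 for endothelial-like cells after their number was seen. The 2 cells of day 10 normoxia are not used. In these cells Flt1 stood at 605 CPM in normoxia (interval 530 to 688) and 1262 CPM in hypoxia at day 8, and 600 CPM in hypoxia at day 10. Kdr was at 610 and 652 CPM at day 8, a ratio of 1.07 whose interval ran up to 1.24 and spanned 1, and at 297 CPM in day 10 hypoxia. At day 8 the endothelial-like cells thus held Flt1 at a higher level in hypoxia, and a difference in Kdr was not detectable at this depth. They held Flt4 at 131, 138 and 50.6 CPM. Of all Flt4 UMIs at day 8 they held 32.9% in normoxia and 79.2% in hypoxia.

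The depth of these few cells differed between libraries. Their median was 16728 UMIs in day 8 normoxia, 56786.5 in day 8 hypoxia and 3729.5 in day 10 hypoxia, and doublets could not be removed. In day 8 normoxia the cell with the most Flt1 UMIs held 30.3% of those of its class, and the cell with the most Flt4 UMIs held 66.0%. Without the top cell, Flt1 there was at 612 CPM and Flt4 at 64.6 CPM. The part of depth in the class differences was not tested.

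Pgf in endothelial-like cells was far higher in day 10 hypoxia than in either day 8 library. It had 2 UMIs in day 8 normoxia and 3 in day 8 hypoxia, but 89 UMIs in day 10 hypoxia, spread over 12 of the 22 cells, which is 644 CPM (517 to 792). The highest cell held 22.5% of these UMIs, and without it the level was 610 CPM. With 2 endothelial-like cells in day 10 normoxia, age, hypoxia and its duration cannot be told apart for Pgf here. In day 10 hypoxia these cells held 3.73% of all Pgf UMIs. The cells outside the named classes held 94.8% to 99.2% of Pgf UMIs, at 14.4 and 24.0 CPM at day 8 and 17.9 and 30.8 CPM at day 10.

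Endoderm-like cells held more Flt1 UMIs at day 8 than any other named class. There were 242 and 196 of them at day 8 and 66 and 62 at day 10. Flt1 in them was at 208 CPM in normoxia (197 to 219) and 358 CPM in hypoxia (341 to 375) at day 8, and at 68.8 CPM (55.5 to 84.3) and 329 CPM (291 to 372) at day 10. They held 58.8% of all Flt1 UMIs in day 8 normoxia and 39.9% in day 8 hypoxia, but 8.91% and 9.65% at day 10. The endothelial-like cells held 9.88% (231 UMIs) in day 8 normoxia and 30.7% (1387 UMIs) in day 8 hypoxia. The same cells held almost no Kdr, with 6, 5, 0 and 0 UMIs in the 4 libraries. Stromal collagen RNA in them at day 8 normoxia was 4.04% to 5.27% of its level outside the named classes, while Flt1 was at 3001% of its level there. Within this cluster, a subcluster of 200 of the 242 cells in day 8 normoxia, with Epcam at 589 CPM and Apob at 351 CPM, held 1358 of the 1375 Flt1 UMIs. The make-up of the class differed between libraries: this subcluster held 142 of the 196 cells in day 8 hypoxia, 50 of the 66 in day 10 normoxia and 20 of the 62 in day 10 hypoxia, and day 10 values of the class compare different mixtures. An unnamed subcluster led by Tagln and Cryab held 26, 37, 12 and 30 cells of the class in the 4 libraries. Another, named pluripotent from its markers and led by Dppa5a, Utf1 and Pou5f1, held 16 and 15 at day 8 and 6 in day 10 hypoxia. Ttr was at 9.34 CPM or less in those pluripotent-type cells. Inside the main subcluster Flt1 was at 73.1 and 481 CPM at day 10. Endoderm markers summed over whole libraries were at 1347 and 1308 CPM at day 8 and at 295 and 349 CPM at day 10, and their part in the Flt1 totals was not tested.

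Flt1 was also read in blood cell classes. Macrophage-like cells, where VEGFR1 is known on the monocyte lineage, were at 89.5 and 137 CPM at day 8 and at 14.1 and 38.7 CPM at day 10, higher in hypoxia at both ages, with ratios of 1.53 (1.21 to 1.93) and 2.74, whose lower bound was 1.88. Megakaryocyte-like cells were at 87.0 and 93.6 CPM at day 8, a ratio of 1.08 (0.706 to 1.62). Erythroid-like cells had 1 UMI in day 8 normoxia and 75 UMIs in day 8 hypoxia, in 19 of 154 cells. Collagen RNA in the hypoxic erythroid-like cells was 23.9% to 27.7% of its level outside the named classes, against 10.9% to 13.7% in normoxia, and the part of free RNA or doublets in these 75 UMIs was not tested.

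Across the cells outside the named classes Flt1 was at 6.92 and 15.7 CPM at day 8 and at 13.9 and 31.6 CPM at day 10. Here the normoxic level was higher at day 10 than at day 8, with a log2 ratio of 0.91 where all cells gave -0.69. Over the same 2 libraries endoderm-like cells went from 242 to 66 and endothelial-like cells from 19 to 2, and the Flt1 level was lower in endoderm-like and macrophage-like cells. Their part in the lower total was not tested. At day 10 normoxia a single cluster of 399 cells, led by Dnm3os, Mgp and Scube1 (cluster 13), held 52.8% of all Flt1 UMIs at 63.8 CPM. At day 10 hypoxia, 927 cells led by Actg2 and Col8a1 (cluster 6) held 42.1% at 46.9 CPM.

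**Figure D3:**
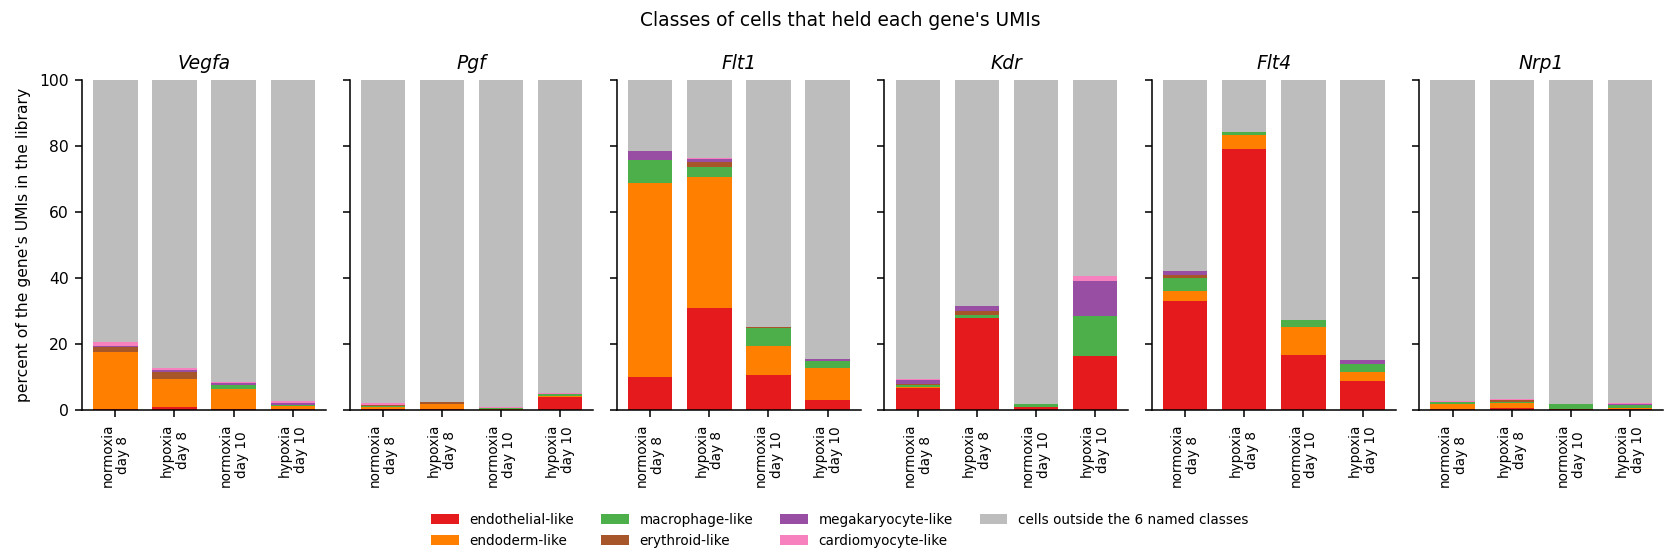
Percent of each gene's UMIs held by each class of cells in the 4 libraries, stacked to 100%. Endoderm-like cells held 58.8% of Flt1 UMIs in day 8 normoxia, and the cells outside the named classes held 98.2% of Kdr UMIs in day 10 normoxia.

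Kdr was mostly not endothelial in these libraries. The cells outside the named classes held 90.8% of its UMIs in day 8 normoxia, 68.4% in day 8 hypoxia, 98.2% in day 10 normoxia and 59.3% in day 10 hypoxia. Their level was 44.0 and 26.0 CPM at day 8 and 66.4 and 2.04 CPM at day 10, from 3190, 1764, 3753 and 150 UMIs. The log2 ratio in them was -0.73 at day 8, past the 1.5-fold that all cells did not reach, and -4.47 at day 10. Kdr in endoderm-like cells at day 8 normoxia was 2.06% of its level outside the named classes, below the share of collagen RNA in the same cells.

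The highest Kdr levels outside the named classes were in a few clusters. Cluster 10, whose leading genes include Tbx4 and Pitx1, transcription factor genes known from the hindlimb bud, and the growth factor gene Hgf, was at 149 CPM in normoxia (845 UMIs) and 116 CPM in hypoxia (650 UMIs) at day 8. At day 10 normoxia cluster 13 was at 140 CPM and cluster 4 (led by Angptl7, Dcn and Fmod) at 87.5 CPM, and these held 1205 and 1878 of the 3822 Kdr UMIs of the library. In the clusters that made up most of the day 10 hypoxic library the level was 4.32 CPM or less: 4.32 CPM in cluster 0, 1.56 in cluster 5, 1.26 in cluster 6, 2.20 in cluster 9 and 1.26 in cluster 17. Those 5 clusters held 25 cells or fewer each of the day 10 normoxic library, so like cells outside the named classes could mostly not be compared at day 10.

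Of the 4 clusters with at least 20 cells in both day 10 libraries, 2 had a Kdr ratio whose interval did not span 1, and they differed in direction. Macrophage-like cells held Kdr at 7.42 CPM in normoxia (30 UMIs) and 19.3 CPM in hypoxia (31 UMIs), a ratio of 2.60 (1.53 to 4.45). Cluster 16, a mesenchymal cluster of low depth (median 3271.5 UMIs), held it at 20.95 CPM in normoxia (11 UMIs) and 1.48 CPM in hypoxia (1 UMI), a ratio of 0.0706 (0.00164 to 0.486). The level in megakaryocyte-like cells was 113 CPM in day 10 hypoxia (27 UMIs) and 67.9 and 86.9 CPM at day 8, with only 11 such cells in day 10 normoxia. Macrophage-like, megakaryocyte-like and endothelial-like cells held 12.3%, 10.7% and 16.2% of the 253 Kdr UMIs of the day 10 hypoxic library. Endothelial markers summed to 290 and 296 CPM at day 8 and to 213 and 99.6 CPM at day 10, with 0 of the 15 at 0 in any library. In the day 10 comparison 3 of the 6 markers that reached 5 CPM were lower and 0 higher, near the 44.1% of all genes called lower. Their part in the lower Kdr total was not tested.

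Day 8 allowed the comparison inside clusters, since 11 clusters had at least 20 cells in both libraries. Vegfa was at least 1.5-fold higher in hypoxia in 9 of the 9 clusters with at least 20 UMIs of it, with log2 ratios from 1.12 in endoderm-like cells to 3.95 in megakaryocyte-like cells. Among clusters with both libraries, the highest hypoxic level was in cluster 8 (led by Tdo2, Hsd11b2 and Colec10), at 41.5 CPM in normoxia and 156 CPM in hypoxia. Flt1 was at least 1.5-fold higher in 8 of 10 clusters, and its counting interval lay above 1 in 8 of the 10. Kdr was lower in hypoxia, with an interval below 1, in 5 of 9 clusters and higher in 1, the erythroid-like cells. Nrp1 had an interval above 1 in 10 of 11 clusters, although only 3 of them were past 1.5-fold. Clusters share their libraries and are not replicates.

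**Figure D4:**
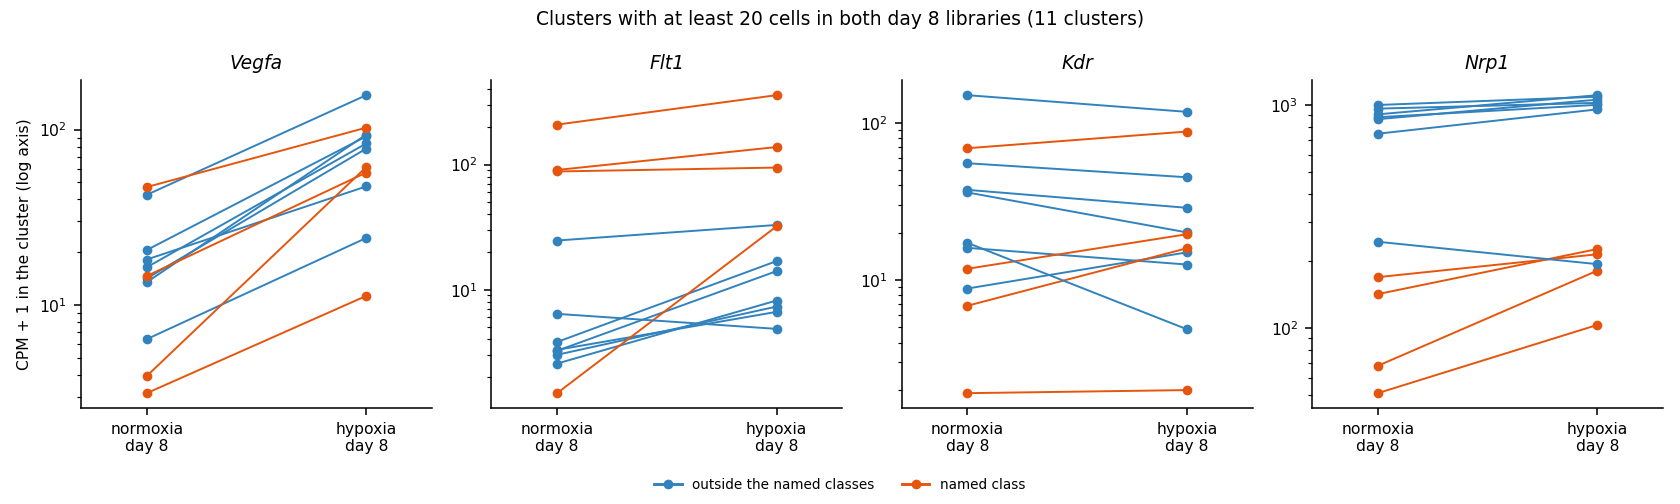
Level of Vegfa, Flt1, Kdr and Nrp1 in CPM + 1 (log axis) in the 11 clusters with at least 20 cells in both day 8 libraries, each line joining 1 cluster in normoxia and hypoxia; orange, clusters of a named class. All 11 Vegfa lines slope up, and the Kdr lines do not share a direction.

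At day 10 only 4 clusters had at least 20 cells in both libraries, among them the endoderm-like and macrophage-like cells. Vegfa in endoderm-like cells was at 104 CPM in normoxia and 124 CPM in hypoxia, a ratio of 1.19 (0.913 to 1.55) over different subcluster mixtures, where at day 8 it had been at 46.1 and 101.6 CPM, a ratio of 2.21 (1.91 to 2.55). In macrophage-like cells Vegfa was at 7.18 and 36.2 CPM at day 10, a ratio of 5.04 (3.18 to 8.17). In the cells outside the named classes Vegfa was at 19.6 and 77.8 CPM at day 8 and at 37.6 and 149.8 CPM at day 10. The day 10 normoxic library had 25 cells in cluster 0, which is led by Gas1, Snai1 and Tbx4 and was otherwise held by 1377 cells of the hypoxic library. These 25 cells held Vegfa at 305 CPM (77 UMIs), where the hypoxic cells of the cluster were at 216 CPM, and 0 Kdr UMIs, which has an exact upper bound of 14.6 CPM (11.9 CPM at 3 counts). Of their barcodes, 0 were also found in the day 10 hypoxic library, but carry-over of cells or reads between the libraries was not tested. Cluster 6 held 11 day 10 normoxic cells, too few for a comparison, with Vegfa at 73.9 CPM (22 UMIs) and Kdr at 77.3 CPM (23 UMIs). Clusters 5 and 17 held 3 such cells each, with 0 Kdr UMIs. Normoxic cells in these clusters thus did not all lack Kdr.

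Shares of cells with a UMI were compared after thinning every cell to 5000 UMIs, which left out 70, 166, 162 and 619 cells in the order above. Vegfa was then found in 8.44% and 31.7% of cells at day 8 and in 15.9% and 47.9% at day 10. Without thinning the shares were 32.0% and 67.6%, and 39.7% and 72.4%. Kdr was found in 16.4% and 11.0% at day 8 and in 22.7% and 1.35% at day 10 (40.0%, 25.7%, 41.9% and 3.71% unthinned). In endoderm-like cells, which held almost no Kdr, the thinned share at day 8 was 0.448% in normoxia and 0 of 160 cells in hypoxia. Their median depth there was 23833.5 and 19831.5 UMIs, against 23186 and 18948 in the cells outside the named classes. Flt1 was found in 5.88% and 8.15% at day 8 and in 4.15% and 12.1% at day 10 (13.8%, 19.2%, 8.80% and 22.0% unthinned). Nrp1 was found in 86.5%, 89.4%, 80.9% and 40.0% of cells. The thinned shares of Kdr and Nrp1 were thus also lower in the day 10 hypoxic library. At a fixed depth the share of cells with a UMI follows the level, so it is not a reading separate from the CPM.

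**Figure D5:**
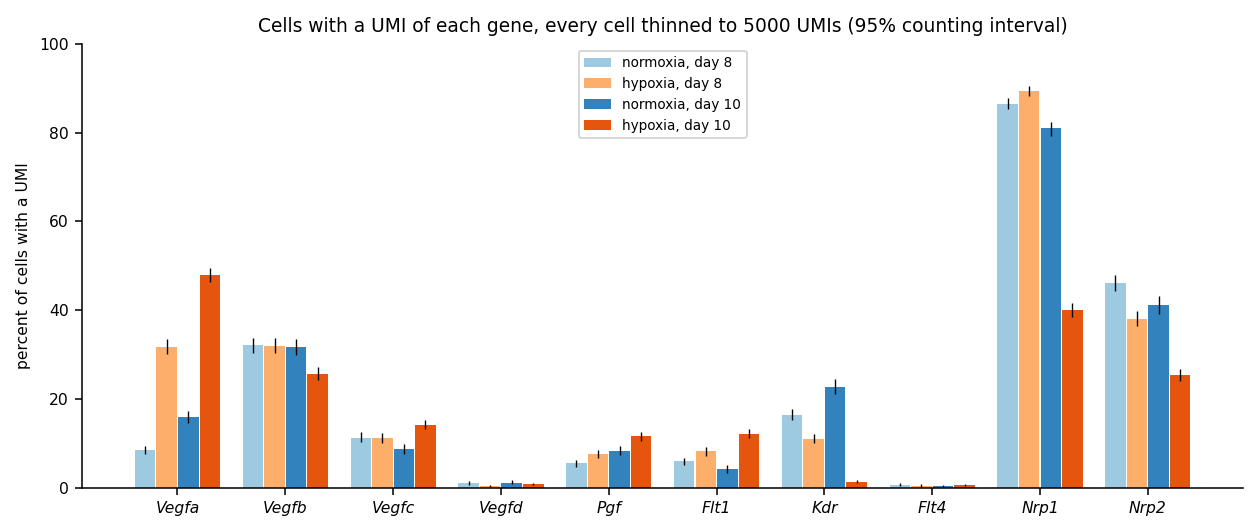
Percent of cells with at least 1 UMI of each gene after every cell was thinned to 5000 UMIs, in the 4 libraries, with exact 95% Clopper-Pearson intervals for counting error. Vegfa goes from 15.9% to 47.9% and Kdr from 22.7% to 1.35% between the day 10 normoxic and hypoxic libraries.

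The neuropilins were largely carried by the cells outside the named classes, which held 96.8% to 98.2% of Nrp1 UMIs and 87.3% to 95.9% of Nrp2 UMIs. Nrp1 in those cells was at 926 and 1056 CPM at day 8 and at 744 and 193 CPM at day 10. In macrophage-like cells Nrp1 was at 141 and 226 CPM at day 8 and at 155 and 96.7 CPM at day 10. Collagen RNA in these cells at day 8 normoxia was 1.15% to 2.22% of its level outside the named classes. In day 8 hypoxia it was 6.78% to 9.74%, and the part of free RNA in their Nrp1 was not tested. Nrp2 in macrophage-like cells was lower in hypoxia at both ages, at 52.8 and 19.6 CPM at day 8 and at 234 and 93.0 CPM at day 10. In endoderm-like cells Nrp2 was at 83.2 and 181 CPM at day 8 and at 154 and 52.2 CPM at day 10, where 50 of 66 and 20 of 62 cells were in the main subcluster.

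Genes that work with the family were read from 5 lists. Beside their counts stand the shares of all genes tested: 4.59% higher and 10.0% lower at day 8, and 10.4% and 44.1% at day 10. Under TMM these shares were 9.38% and 4.09% at day 8 and 25.5% and 25.3% at day 10. Class 3 semaphorins and plexins, the guidance ligands and receptors that pair with neuropilins, had 10 of 12 genes above the minimum. At day 8, 1 was called higher (Sema3e, log2 ratio 0.77) and 0 lower, and at day 10, 0 higher and 7 lower. The lowest at day 10 were Plxna4 at 417 and 34.9 CPM (-3.54), Sema3a at 41.7 and 3.26 CPM (-3.33) and Plxna2 at 127 and 13.7 CPM (-3.12). The median of the list at day 10 was -1.22, where that of all genes tested was -0.46.

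VEGF receptor signalling, the adaptors and kinases below the receptors, had 34 of 37 genes above the minimum. At day 8, 1 was called higher and 2 lower, and at day 10, 4 higher and 8 lower, with medians of -0.00 and -0.06. Map2k1, the kinase MEK1, was at 44.1 and 87.4 CPM at day 8 (0.97). Prkcb, a protein kinase C, was lower at both ages, at 12.2 and 6.15 CPM at day 8 (-0.89) and at 15.5 and 1.39 CPM at day 10 (-2.78). Hspb1, a small heat shock protein, was at 89.6 and 235 CPM at day 10 (1.38), and Pik3cb, a catalytic subunit of phosphatidylinositol 3-kinase, at 16.0 and 44.5 CPM (1.42). The others called at day 10 in the higher direction, named after their values were seen, were Sos1 (1.02) and Prkd1 (0.79), and Pik3r1 (-0.64) was the other one lower at day 8. Shc1, an adaptor, was lower at day 10 (-1.34). The rest lower at day 10, also named after their values were seen, were Pik3r1 (-1.31), Map2k2 (-1.27), Prkca (-0.89), Akt1 (-0.75), Nck2 (-0.67) and Plcg2 (-0.61). Under TMM the counts of this list were 4 higher and 1 lower at day 8 and 12 higher and 4 lower at day 10.

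Genes induced by VEGF in endothelial cells, a list that includes Pgf, had 9 of 14 above the minimum, and 1 was called higher (Pgf itself) and 0 lower at day 8, and 2 higher and 4 lower at day 10. Egr3, an immediate early transcription factor gene, was at 35.1 and 6.67 CPM at day 10 (-2.23), and Angpt2, a ligand of the Tie2 receptor, at 7.15 and 1.77 CPM (-1.56). The others called, of which Nr4a2 and Igfbp3 are named after their values were seen, were Nr4a1 (-0.97) and Igfbp3 (-0.64) lower and Pgf and Nr4a2 (0.77) higher. Under TMM this list had 3 higher and 0 lower at day 8 and 3 higher and 2 lower at day 10, with Nr4a1 at -0.48 and Igfbp3 at -0.14. Of the co-receptors, phosphatases and extracellular modulators, 18 of 22 were above the minimum, with 2 higher and 1 lower at day 8 and 4 higher and 7 lower at day 10. Mcam, a VEGFR2 co-receptor, was higher in hypoxia at both ages, at 9.10 and 20.6 CPM (1.09) and at 15.1 and 37.4 CPM (1.25). Hspg2, the proteoglycan perlecan, was higher at day 8 (0.61) and Adamts3 lower (-0.65). Ccn2, a matrix protein that binds VEGF-A, was at 40.7 and 182 CPM at day 10 (2.14). Adamts3 and Ccbe1, which process VEGF-C, were at 30.3 and 4.06 CPM (-2.63) and at 75.2 and 14.7 CPM (-2.28) at day 10. Itgb3 (1.15) and Efnb2 (0.77), named after their values were seen, were the others higher at day 10. The rest lower at day 10, named in the same way, were Sdc2 (-0.91), Dab2 (-0.67), Gpc1 (-0.63), Ephb4 (-0.62) and Cd44 (-0.59). Under TMM this list had 4 higher and 0 lower at day 8, with Adamts3 at -0.44, and 6 higher and 2 lower at day 10.

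Of the transcription factors of the endothelial program, 6 of 17 were above the minimum, with 1 called higher (Klf2, 0.62) and 0 lower at day 8 and 1 higher and 3 lower at day 10. Klf4 was at 18.1 and 56.4 CPM (1.59) and Fli1 at 29.6 and 7.14 CPM (-1.91) at day 10. Lmo2 (-1.27) and Mef2c (-1.15) were the others called lower. Shares of the lists near the 44.1% of all genes called lower at day 10 are not results about the lists.

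Genes with the most similar pattern were ranked by Pearson's r of log2(CPM + 1) over 20 sums of a class in a library, among 6456 genes. A sum needed at least 20 cells here, so endothelial-like cells entered only from day 10 hypoxia. Flt4 was at 50.6 CPM in that sum, from 7 UMIs. The endothelial-like sums of day 8, with Flt4 at 131 and 138 CPM, were left out. For Flt4 and Kdr the endothelial-like value thus comes from that sum alone. All 20 sums share libraries, depth and cell classes, and the r is a description with no test. For Vegfa the closest were Gigyf1 (0.92), Tra2a (0.91), Ube2b (0.91), March7 (0.89) and Kdm5b (0.89), the last a histone demethylase gene. For Flt1 they were Tes (0.84), Mtus1 (0.78), Pias1 (0.76), Nup50 (0.74) and Tspan14 (0.71), and for Kdr they were Tmtc2 (0.86), Lrrc8c (0.81), Wdr37 (0.79), Gng11 (0.77) and the plexin gene Plxna4 (0.75). Pgf was closest to the chemokine gene Cxcl12 (0.93), followed by Fam8a1 (0.87), Rgs3 (0.86), Osbpl5 (0.86) and Dysf (0.86). Nrp1 was closest to Eid1 (0.86), Nell1 (0.86), Fjx1 (0.85), Tmem119 (0.85) and Phactr2 (0.83), and Flt4 to Eif2b2 (0.85), Bcl10 (0.79), Mfsd14a (0.78), Rab21 (0.77) and Chd1 (0.77).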

How the data were processed

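Single-cell RNA was measured with the 10x Genomics 3′ method in 4 libraries, 1 per group. The authors deposited filtered tables of raw counts (UMIs per gene and cell barcode) made with Cell Ranger 7.1.0 on mouse build mm10, per the submitters' processing notes. Intron counting is not stated in these sources. Free RNA is not removed by this processing and can place UMIs in cells that do not express a gene.

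From the deposited counts, cells with at least 500 genes and at most 15% mitochondrial UMIs were kept, with Python 3.11.15 and scanpy 1.11.5. The doublet caller Scrublet marked 1 to 9 cells per library, under 0.5% of them, which is too few for the caller to have worked, so doublets remain. Libraries shared 13 kept barcodes. UMIs were summed per library and per class, scaled to a total of 1000000 (CPM), and compared as log2 ratios of CPM + 1. Intervals are exact Poisson, conditional binomial or Clopper-Pearson at 95%. Calls needed 1.5-fold and a mean of 5 CPM. Clusters (Leiden, resolution 1, 2000 variable genes, 30 components, 15 neighbours) left out the 10 genes and hypoxia, glycolysis, cycle, stress, mitochondrial and ribosomal genes, and were named from marker lists. The marker lists gave all clusters outside the named classes the name mesenchymal. Values over all of them are given as values of a mixed group. Among them, cluster 0 had a trophoblast marker and no mesenchymal one among its leading genes. Clusters 2, 9, 10 and 17 had no mesenchymal marker there either. A class needed 20 cells in a library, 15 for endothelial-like cells, a minimum chosen after seeing the data. The ranking of genes with a similar pattern kept the minimum of 20 for all classes. The calling and interval steps were tested on simulated counts. No column of per-sample values was left unused.

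Coordinates are from GENCODE M21, which held 32158 of the 32285 gene identifiers, and promoter sequences from RefSeq. The 10 genes and all lists were chosen with earlier results of these data known. All 10 genes are named, up to 4 genes per list and hypoxia comparison with the largest absolute ratio, and the 5 genes most alike to each of 6 members.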

Additional observations from a re-analysis of the deposited data

Results flagged for a closer look

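In 6 cases the hypoxic library set against the normoxic one gave a ratio whose counting interval lay wholly above 1 at one age and wholly below 1 at the other, over all cells or in a class with at least 20 cells in each library. The difference was not tested in any of them, since each group was 1 library. Nrp1 had a log2 ratio of 0.22 at day 8 and -1.86 at day 10 over all cells. The same was seen in the cells outside the named classes, with 0.19 and -1.94, and in macrophage-like cells, with 0.67 and -0.67. The thinned share of macrophage-like cells with Nrp1 was 37.3% in normoxia and 31.6% in hypoxia at day 8, though. The collagen RNA of those cells is given above, and the part of free RNA in their Nrp1 was not tested. Nrp2 in endoderm-like cells was at 1.11 and -1.54. Vegfc in macrophage-like cells was at 1.09 and -1.06, while in the cells outside the named classes it was at -0.11 and 0.64. The macrophage-like values rested on 17 and 20 UMIs at day 8 and on 94 and 17 UMIs at day 10. At day 10 these UMIs lay in 5.46% of 183 normoxic cells and 5.04% of 119 hypoxic cells, unthinned. The share of cells was thus alike there, and the interval does not cover differences between single cells. The hypoxia lasted 16 h at day 8 and 48 h at day 10, so age and duration cannot be told apart.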

How the results depend on the processing

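No paired analysis was possible because each group was 1 library, and no replicate could be left out. Vegfa, Pgf and Flt1 kept their higher direction in hypoxia at both ages under 12 settings of scaling, cells and pseudocount (Vegfa 1.49 to 2.04 at day 8 and 1.73 to 2.45 at day 10). Vegfa and Flt1 stayed past 1.5-fold in all 12 at both ages and Pgf at day 10, but Pgf at day 8 in 10 of 12 (lowest 0.47) and Vegfc at day 10 in 9 of 12 (lowest 0.45). Kdr, Nrp1 and Nrp2 kept their lower direction at day 10 (Kdr -4.47 to -2.43). The Flt1 ratio between normoxic libraries was reversed, from -0.69 to 0.91, with only cells outside the named classes. With only those cells, 1 gene (Kdr) and not 0 was lower at day 8. A threshold of 2-fold gave 2 genes and not 4 higher at day 10 in hypoxia. Between the normoxic libraries, where 1 gene was called in each direction, the number higher was 2 under TMM, centring on the median of all genes, totals without mitochondrial, ribosomal and Malat1 UMIs, no minimum level, per-cell means or only cells outside the named classes, and 0 at 2-fold. The number lower there was 0 under TMM, a pseudocount of 10 CPM, 2-fold or only cells outside the named classes, and 2 with no minimum level. The cause was not tested. Choosing endothelial-like cells by UMIs of 3 markers took in 1342, 924, 776 and 307 cells outside the named classes, as well as cells of other named classes, and does not measure that class. Flt4 rested on 48 to 192 UMIs per library and Vegfd on 84 to 200. The choices of 5000 UMIs, of leaving out the low-depth cluster 16 and of only cells outside the named classes were made after seeing the data.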
